A study of Rattus norvegicus with 45 samples.

Results

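The haem genes followed here are Alas1, Alad, Urod, Cpox, Ppox and Fech, which build haem, and Hmox1, which breaks it down. With them are Blvrb, a biliverdin and flavin reductase, and Hpx, whose product binds free haem in plasma. The last is Por, the reductase that feeds electrons to cytochromes P450. Members were all probe sets that the array's annotation lists with 1 of these 10 symbols alone. This gave 11 probe sets, 2 of them for Por, among 31042 tested. Where a gene is counted once, its probe set of highest mean stands for it.

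Whole-liver RNA of gavaged male Sprague-Dawley rats, aged 10 weeks, was measured on Affymetrix Rat Genome 230 2.0 arrays. By their titles the 45 arrays form 9 groups of 5: control, myclobutanil and triadimefon, each at 6 h, 24 h and 14 days. Myclobutanil was dosed at 225 mg/kg/day and triadimefon at 175 mg/kg/day, as stated for the series and not per array, so a difference between the compounds is not one between equal doses. The labels state no vehicle for the controls. They also conflict on numbers, with 15 livers in the series text and 3 rats per group in the labelling protocol, so p-values here measure the spread between arrays, which may in part be technical. Both compounds are triazole fungicides, made to block a fungal cytochrome P450 of sterol synthesis. The 5 controls of a time serve both compounds, so the comparisons at that time share them.

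Haem is a ring of carbon and nitrogen that holds iron, and liver makes it largely to furnish its cytochromes P450. ALAS1 joins glycine to succinyl-CoA in mitochondria and sets the pace in liver, where haem itself holds ALAS1 down. ALAD, UROD, CPOX and PPOX carry the intermediates forward, and ferrochelatase, encoded by Fech, inserts the iron. Haem oxygenase 1, encoded by Hmox1, opens the ring to biliverdin, iron and carbon monoxide, and biliverdin reductases pass the pigment on towards bilirubin.

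At 24 h Alas1 and Por rose with both compounds, Urod fell with both and Ppox fell with triadimefon. The stretches of 250 bases before their listed starts are shown for this reason. They are taken from RefSeq on the rat assembly GRCr8, 5′ to 3′ on the minus strand, from chr8:115768643-115768892 for Alas1, chr12:26635810-26636059 for Por, chr5:135705381-135705630 for Urod and chr13:86234247-86234496 for Ppox. Capitals mark matches on either strand to 9 motifs that were searched. These were the nuclear receptor element AGGTCA, the GC box GGGCGG, the CCAAT box, the TATA box as TATAAA, the E-box CACGTG, the cAMP response element core TGACG, the antioxidant response element core TGACNNNGC, the NRF-1 site and the C/EBP core TTGCNNAA.
Alas1: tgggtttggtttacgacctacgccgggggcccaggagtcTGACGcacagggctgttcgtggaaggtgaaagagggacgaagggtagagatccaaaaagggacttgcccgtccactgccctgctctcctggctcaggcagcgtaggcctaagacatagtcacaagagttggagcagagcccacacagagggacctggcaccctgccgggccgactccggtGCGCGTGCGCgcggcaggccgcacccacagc
Por: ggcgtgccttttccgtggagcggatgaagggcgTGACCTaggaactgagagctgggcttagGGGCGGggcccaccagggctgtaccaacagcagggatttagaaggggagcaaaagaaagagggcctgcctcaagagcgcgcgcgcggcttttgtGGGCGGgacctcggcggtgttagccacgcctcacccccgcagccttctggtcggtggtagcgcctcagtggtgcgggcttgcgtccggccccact
Urod: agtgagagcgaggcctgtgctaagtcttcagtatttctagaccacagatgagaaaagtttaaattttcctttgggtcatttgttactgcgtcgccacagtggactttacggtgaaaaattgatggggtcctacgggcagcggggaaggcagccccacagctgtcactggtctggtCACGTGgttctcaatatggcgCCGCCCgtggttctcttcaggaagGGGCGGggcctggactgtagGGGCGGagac
Ppox: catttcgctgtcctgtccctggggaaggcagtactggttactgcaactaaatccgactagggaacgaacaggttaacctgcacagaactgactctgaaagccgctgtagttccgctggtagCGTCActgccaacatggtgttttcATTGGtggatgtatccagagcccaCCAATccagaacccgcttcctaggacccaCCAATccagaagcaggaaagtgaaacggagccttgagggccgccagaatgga
The Alas1 stretch held 1 cAMP response element core, 211 to 207 bases before the start, and 1 NRF-1 match, 31 to 22 bases before it. The Por stretch held 1 nuclear receptor element, 217 to 212 bases before the start, and 2 GC boxes. Urod had 3 GC boxes and 1 E-box, and Ppox had 3 CCAAT boxes and 1 cAMP response element core. Over 33469 promoter stretches of this length in the table, the NRF-1 match occurred in 3.75%, the E-box in 5.59%, the nuclear receptor element in 14.1%, the cAMP response element core in 18.2%, the GC box in 30.5% and the CCAAT box in 34%. Alas1 and Por shared none of these 9 motifs, and a match is a run of letters, not a shown binding site. In the gene table Alas1 spans chr8:115755238-115768642, Urod chr5:135701294-135705380, Ppox chr13:86230111-86235028 and Por chr12:26587674-26655612, so the stretches shown for Ppox and Por lie within the longer gene spans.

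The deposited values are scores on a log-type scale whose base is not given in the sources used here, so differences are in units of the score, without folds. A value after ± is a standard error of the fit unless it is named as an SD, and rises and falls are named only at an adjusted p under 0.05. Scores ran from -0.98 to 5.69. The arrays were centred alike, with medians of -0.012 to 0.033, but not made equally wide, since their 99th percentiles over the tested probe sets ran from 2.69 to 3.52. Among probe sets with a mean score over 3, the median SD within a group went from 0.218 to 0.0581 when the arrays were quantile-normalized, which gives them all 1 distribution. The defining hepatocyte markers measured, 9 of 10 listed, all had a mean score over 0, from 2.28 for Tat to 4.88 for Alb.

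Alas1 and Por rose at 6 h and at 24 h under both compounds and were not called at 14 days. Of the 10 genes, 3 rose and 0 fell with myclobutanil at 6 h, when 0.38% of all probe sets were called and 0.271% were called higher. With triadimefon at 6 h, 2 rose and 0 fell against a background of 0.915%, of which 0.738% higher. At 24 h, 3 rose and 1 fell with myclobutanil (8.47% of probe sets called, 3.05% higher and 5.42% lower), and 2 rose and 2 fell with triadimefon (7.98% called, 2.24% higher and 5.75% lower). At 14 days 0 of 10 were called with either compound, where 0.792% of probe sets were called with myclobutanil and 6.69% with triadimefon. All 10 genes lie at percentile 80.8 of mean score or above, and shares are larger among bright probe sets. When only probe sets above the median level were tested, 1.1% were called with myclobutanil and 2.49% with triadimefon at 6 h. These shares were 15% and 16.2% at 24 h and 2.06% and 10.5% at 14 days. At an unadjusted p under 0.05 the 14-day counts were 4 of 10 with myclobutanil, where 13.1% of all probe sets passed, and 3 of 10 with triadimefon, where 23.7% passed. The 24 h counts and their split depended on the scaling of the arrays. After quantile normalization 6 of the 10 rose and 0 fell with myclobutanil, as Alad, Cpox and Fech were gained and Urod was lost, and over all probe sets the calls went from 946 higher and 1682 lower to 1878 higher and 1483 lower. With triadimefon 4 rose and 2 fell, as Fech and Blvrb were gained, and the calls over all probe sets went from 694 higher and 1784 lower to 1381 higher and 1421 lower. At 6 h the member counts stayed at 3 and 2 after quantile normalization, while calls over all probe sets went from 84 higher and 34 lower to 266 and 175 with myclobutanil, and from 229 and 55 to 530 and 298 with triadimefon. At 14 days they went from 228 higher and 18 lower to 222 and 124 with myclobutanil. The median difference of the 10 genes lay between -0.025 and 0.163 over these 6 comparisons, and that of all probe sets between -0.011 and 0.008.

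**Figure D1:**
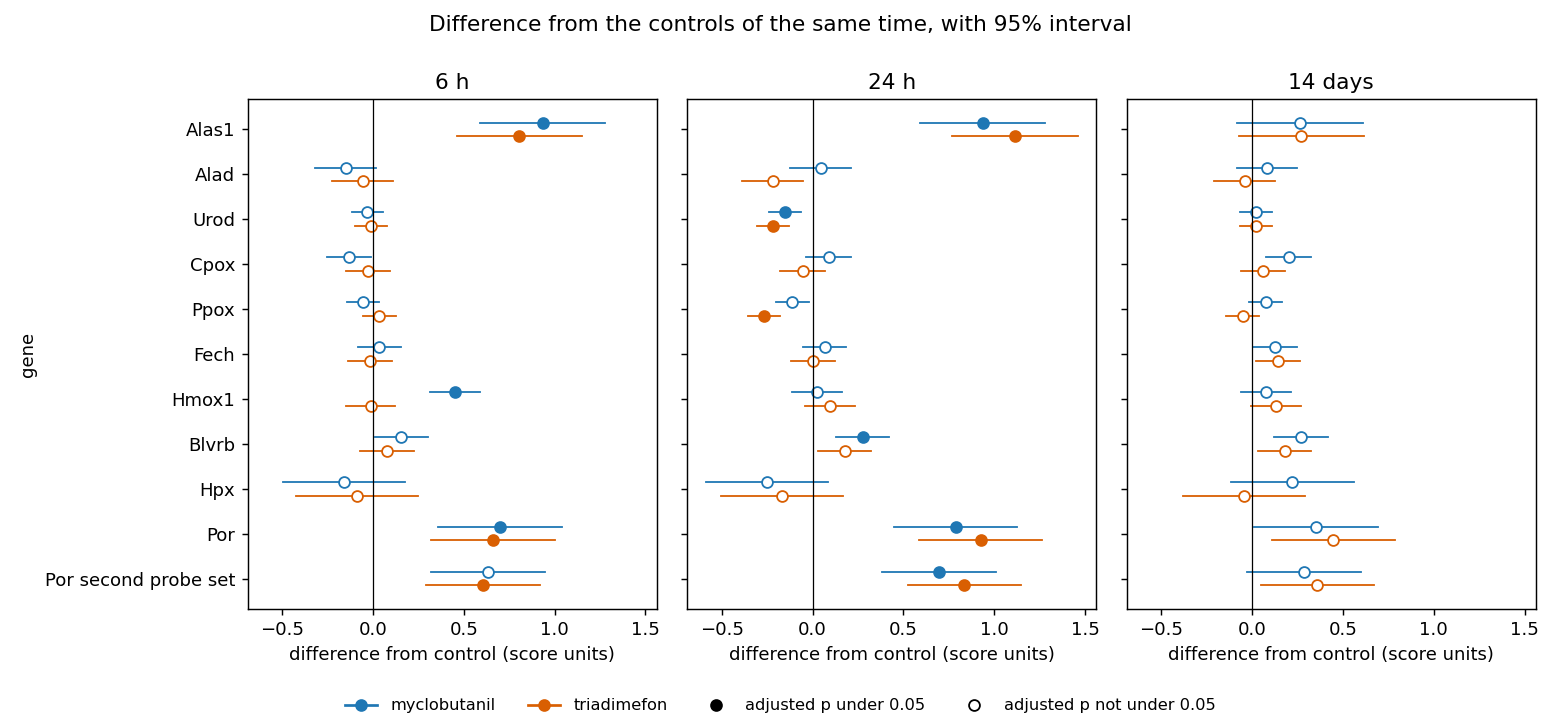
Difference of each member from the controls of its time in score units (x axis), for myclobutanil and triadimefon at 6 h, 24 h and 14 days, with 95% intervals; filled points had an adjusted p under 0.05. Alas1 and Por stand to the right at 6 h and 24 h under both compounds, Hmox1 only with myclobutanil at 6 h, and no point is filled at 14 days.

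Alas1, the pace-setting enzyme of haem synthesis in liver, was higher on every treated array than on any control array at 6 h and 24 h. At 6 h the control scores were 1.76, 2.24, 2.66, 2.37 and 1.99. Myclobutanil gave 2.91, 2.89, 3.06, 3.60 and 3.24, and triadimefon 2.95, 3.11, 3.13, 2.84 and 3.02. The lowest treated array thus lay above the highest control in both groups, a separation that 1.63% and 2.54% of probe sets showed in these 2 comparisons. The difference from control was 0.94 ± 0.17 for myclobutanil (adjusted p = 0.0021) and 0.81 ± 0.17 for triadimefon (adjusted p = 0.0086). In bulk liver, fewer cells of a type and less RNA per cell cannot be told apart, which holds for every difference given here.

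At 24 h the Alas1 scores were 1.71, 2.17, 1.92, 2.12 and 2.14 in controls. They were 2.87, 3.00, 2.98, 2.68 and 3.20 with myclobutanil, and 2.53, 3.29, 3.20, 2.93 and 3.66 with triadimefon. Again no treated array reached down to the controls, as for 6.35% and 5.61% of probe sets. Alas1 was 0.94 ± 0.17 higher with myclobutanil (adjusted p = 0.00025) and 1.11 ± 0.17 higher with triadimefon (adjusted p = 4.8e-05).

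At 14 days the groups overlapped. Controls read 2.18, 1.84, 1.61, 1.93 and 2.00, myclobutanil 1.71, 2.38, 2.14, 2.64 and 2.01, and triadimefon 1.99, 2.32, 1.93, 2.58 and 2.08. The Alas1 difference was 0.26 ± 0.17 with myclobutanil (adjusted p = 0.53, 95% interval -0.08 to 0.61) and 0.27 ± 0.17 with triadimefon (adjusted p = 0.34, 95% interval -0.07 to 0.62). The triadimefon effect was smaller at 14 days than at 24 h, a change of -0.843 ± 0.241 with adjusted p = 0.019, where 12.7% of probe sets were called. For myclobutanil the same contrast was -0.67 ± 0.24 and missed the threshold (adjusted p = 0.093, with 4.56% of probe sets called), and after quantile normalization it was -0.95 with adjusted p = 0.0084. Between 6 h and 24 h the Alas1 effect moved by 0.001 ± 0.241 with myclobutanil (adjusted p = 1) and by 0.31 ± 0.24 with triadimefon (adjusted p = 0.52).

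Ordered by mean, the 9 groups fell into an upper set for Alas1, myclobutanil at 6 h (3.14 ± 0.29, SD, n = 5), triadimefon at 24 h (3.13 ± 0.42), triadimefon at 6 h (3.01 ± 0.12) and myclobutanil at 24 h (2.95 ± 0.19), and a lower set. The lower set held the controls at 6 h (2.20 ± 0.35), triadimefon at 14 days (2.18 ± 0.27), myclobutanil at 14 days (2.17 ± 0.35), and the controls at 24 h (2.01 ± 0.20) and 14 days (1.91 ± 0.21). The step between the sets was 0.742, and no other pair of neighbours in this order differed by more than the SD of either group.

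Por, the NADPH-dependent reductase that passes electrons to microsomal P450s and to haem oxygenase, rose at the same times. At 6 h its main probe set read 1.27, 1.65, 2.00, 1.72 and 1.61 in controls. With myclobutanil the scores were 2.22, 2.17, 2.06, 2.89 and 2.40, and with triadimefon 2.15, 2.33, 2.47, 2.35 and 2.25. All 10 treated arrays lay above all 5 controls. Por was higher by 0.70 ± 0.17 with myclobutanil (adjusted p = 0.048) and by 0.66 ± 0.17 with triadimefon (adjusted p = 0.042).

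At 24 h Por read 1.11, 1.38, 1.21, 1.21 and 1.33 in controls and 1.92, 2.03, 2.02, 2.10 and 2.11 with myclobutanil. With triadimefon it read 1.79, 1.89, 2.15, 1.97 and 3.06, the last on the array that was also highest for Alas1. The groups stood clear of the controls. The differences were 0.79 ± 0.17 (adjusted p = 0.0018) and 0.92 ± 0.17 (adjusted p = 0.00047), and without the array at 3.06 the triadimefon difference was 0.70.

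At 14 days Por read 1.04, 1.43, 1.05, 0.98 and 1.05 in controls, 1.12, 1.39, 1.31, 2.05 and 1.46 with myclobutanil, and 1.30, 1.42, 1.42, 1.96 and 1.70 with triadimefon. The groups overlapped only through the control array at 1.43. Differences of 0.35 ± 0.17 with myclobutanil (adjusted p = 0.36, 95% interval 0.01 to 0.69) and 0.45 ± 0.17 with triadimefon (adjusted p = 0.097, 95% interval 0.11 to 0.79) missed the threshold. The change of the Por effect from 24 h to 14 days was -0.44 ± 0.24 with myclobutanil (adjusted p = 0.29), and triadimefon gave -0.48 ± 0.24 (adjusted p = 0.17), so a smaller effect at 14 days was not shown for Por.

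The second Por probe set gave the same picture, with differences at 6 h of 0.63 with myclobutanil (adjusted p = 0.052, just outside the threshold) and 0.61 with triadimefon (adjusted p = 0.042). At 24 h it was higher by 0.70 (adjusted p = 0.0026) and 0.84 (adjusted p = 0.00055), and at 14 days by 0.29 (adjusted p = 0.44) and 0.36 (adjusted p = 0.15). In the order of the 9 Por group means, the step between myclobutanil at 24 h (2.04 ± 0.07, SD, n = 5) and the controls at 6 h (1.65 ± 0.26) was 0.384 and exceeded the SD of both.

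The 6 h results rest on a thinner base than those at 24 h. The array files end in 11 on all 24 h arrays, while at 6 h 2 control arrays end in 21 and 31 and 3 arrays of each compound end in 12; the sources used here do not say what the ending means. On arrays ending in 11 alone, the 6 h differences of Alas1 were 0.86 (adjusted p = 0.31) with myclobutanil and 0.89 (adjusted p = 0.39) with triadimefon, and those of Por 0.67 (adjusted p = 0.57) and 0.77 (adjusted p = 0.54). When 1 array of the groups compared was left out, Por at 6 h lost its call in 8 of 10 repeats with myclobutanil and in 9 of 10 with triadimefon, with differences of 0.56 to 0.79 and 0.56 to 0.75. Alas1 kept its call in all 10 repeats with myclobutanil at 6 h and lost it with triadimefon without control array 1 (0.69, adjusted p = 0.051). At 24 h no left-out array ended a call of Alas1 or Por. In a fit of only the groups compared, Alas1 with myclobutanil at 6 h had an adjusted p of 0.055, and Por had 0.15 with myclobutanil at 6 h and 0.053 with triadimefon at 24 h.

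**Figure D2:**
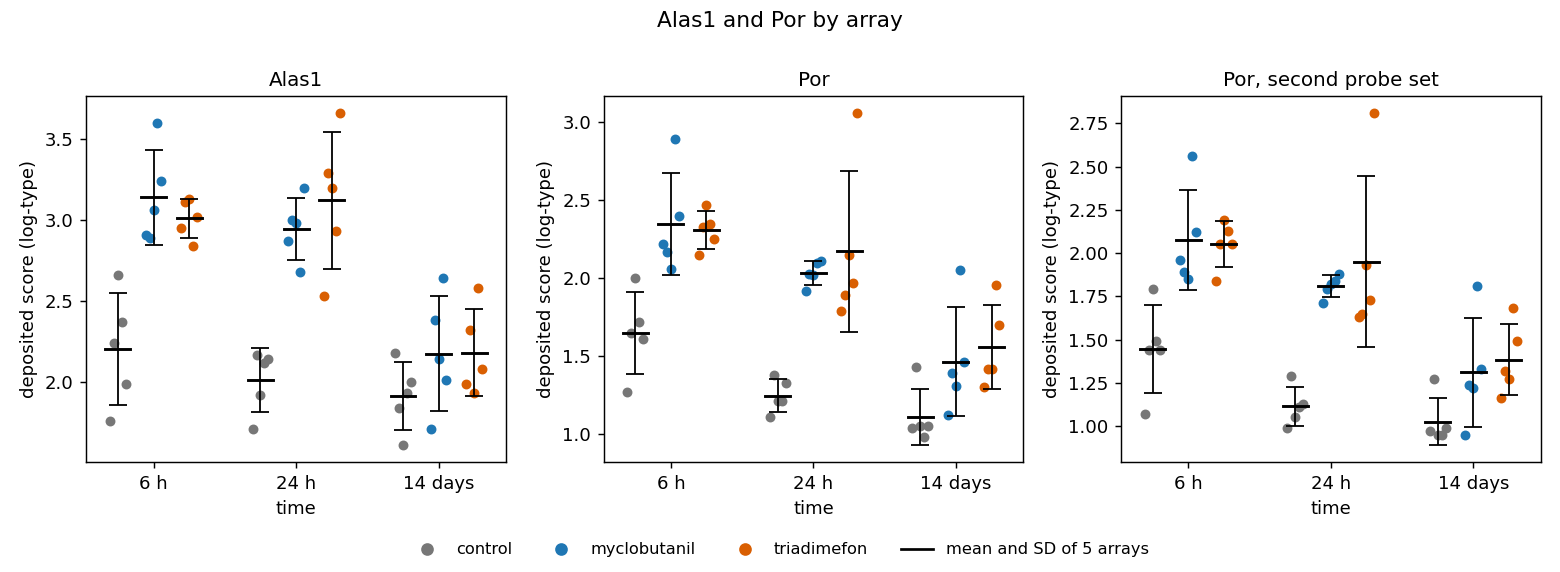
Deposited score (y axis, log-type scale) of Alas1 and of both Por probe sets on each array at 6 h, 24 h and 14 days, with the mean and SD of 5 arrays. At 6 h and 24 h every treated array lies above every control array of its time, and at 14 days the groups overlap.

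Alas1 and Por also varied together from array to array. Of 9593 genes with a mean score over 0, Por had the highest Pearson r with Alas1 over the 45 quantile-normalized arrays (0.92, Spearman's rho 0.87), followed by Vav2 (0.887) and Atg4d (0.887). For Por the order was Alas1, Atl2 (0.879) and Stbd1 (0.867). These values describe arrays that share treatments, and the groups form the 2 sets given above. Within the compounds r was 0.93 over 15 myclobutanil arrays and 0.87 over 15 triadimefon arrays, values that still hold the differences between times. Over the 15 control arrays it was 0.68 with a rho of 0.35. For deviations from the group means, which hold no treatment difference, r was 0.67 over 45 arrays, and Por ranked 7 among the 9593 genes. Without the 2 arrays farthest from the median of Alas1, r over the other 43 was 0.91, which still holds the split between the 2 sets of groups. The r of the deviations was not computed without them.

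**Figure D3:**
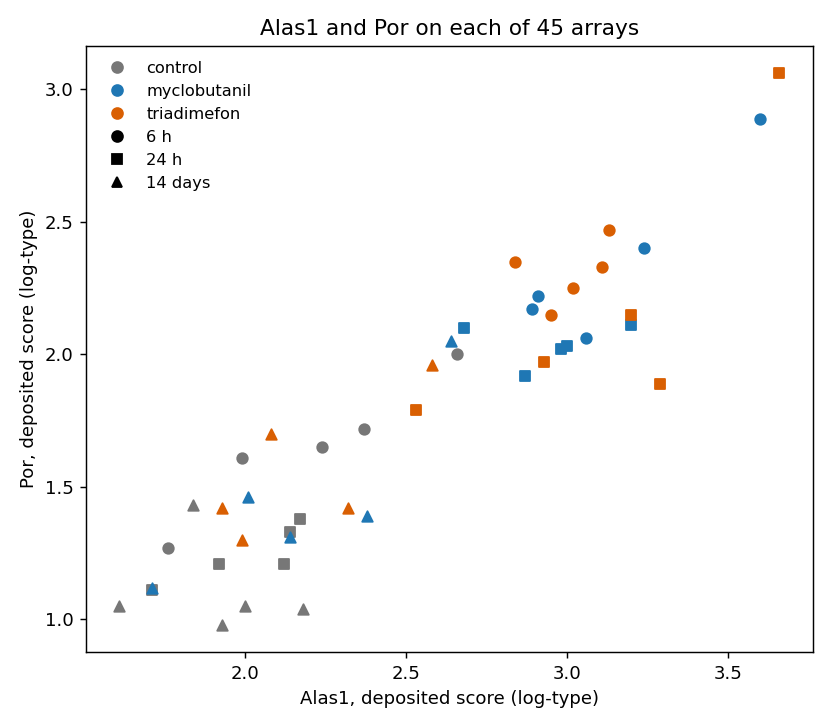
Por (y axis) against Alas1 (x axis), deposited scores on each of 45 arrays, with colour for the compound and shape for the time. Treated arrays at 6 h and 24 h lie to the upper right, controls and most 14-day arrays to the lower left, and the arrays highest in Alas1 (3.66 and 3.60) are also highest in Por (3.06 and 2.89).

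The probe set listed with both Cyp2b1 and Cyp2b2, P450s that are the classic targets of phenobarbital-like inducers, is set beside these genes because haem and reductase serve such enzymes. It rose by 2.44, 2.59 and 2.64 with myclobutanil at 6 h, 24 h and 14 days and by 2.38, 2.56 and 2.52 with triadimefon, with adjusted p of 1.8e-09 or less. Its effect at 14 days against 24 h moved by 0.05 ± 0.30 (adjusted p = 0.95) and -0.04 ± 0.30 (adjusted p = 0.95). Alas1 over the same step moved by -0.67 and -0.84, as given above. Whether the course of Alas1 differs from that of Cyp2b1 or Cyp2b2 was not tested.

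Of the later enzymes of synthesis, Urod fell at 24 h with both compounds and Ppox with triadimefon alone. Alad, Cpox and Fech were not called in any comparison of a compound with control on the deposited scores. Urod, which removes carboxyl groups from uroporphyrinogen, read 1.58, 1.74, 1.54, 1.50 and 1.63 in controls at 24 h. With myclobutanil it read 1.45, 1.46, 1.46, 1.45 and 1.40, and with triadimefon 1.31, 1.42, 1.42, 1.38 and 1.39. Both treated groups lay wholly below the controls. Urod fell by 0.154 ± 0.043 with myclobutanil (adjusted p = 0.02) and fell by 0.215 ± 0.043 with triadimefon (adjusted p = 0.0013).

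Ppox, which oxidises protoporphyrinogen in mitochondria, read 0.66, 0.95, 0.73, 0.64 and 0.71 in controls at 24 h. It read 0.62, 0.61, 0.66, 0.65 and 0.58 with myclobutanil and 0.45, 0.49, 0.52, 0.52 and 0.37 with triadimefon. The triadimefon arrays lay below all controls and below all myclobutanil arrays. Ppox fell by 0.267 ± 0.045 with triadimefon (adjusted p = 0.00015). With myclobutanil the difference was -0.111 ± 0.045 (adjusted p = 0.12), and the compounds differed by -0.156 ± 0.045 (adjusted p = 0.076).

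Neither gene was called at 6 h or 14 days. Urod differed from control by -0.03 with myclobutanil and -0.013 with triadimefon at 6 h, and by 0.02 with each at 14 days. Ppox differed by -0.05 and 0.04 at 6 h and by 0.08 and -0.05 at 14 days. The triadimefon effect on Ppox changed from 6 h to 24 h by -0.303 ± 0.063 (adjusted p = 0.0051, with 3.13% of probe sets called). From 24 h to 14 days it rose again by 0.216 ± 0.063 (adjusted p = 0.022), and that of Urod rose by 0.235 ± 0.061 (adjusted p = 0.011). In that contrast 12.7% of all probe sets were called, and 20.6% of those above the median level. After quantile normalization it gave 0.14 (adjusted p = 0.074) for Ppox and 0.08 (adjusted p = 0.16) for Urod. The 24 h against 6 h contrast of Ppox was then -0.24 (adjusted p = 0.0033), but on arrays ending in 11 alone it lost its call.

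One control array bears on these small differences. Control array 2 at 24 h had the widest spread of all 45 arrays, with a 99th percentile of 3.52, and it was the highest of its group for 10 of 10 members. Without it the 24 h difference of Urod was -0.119 with myclobutanil (adjusted p = 0.11), and triadimefon gave -0.18 (adjusted p = 0.011), and that of Ppox with triadimefon was -0.215 (adjusted p = 0.0011). The call of Urod with myclobutanil was also lost without myclobutanil array 5 (-0.142, adjusted p = 0.054) and after quantile normalization (-0.08, adjusted p = 0.053). A fit of only the groups compared lost it as well. After quantile normalization the triadimefon differences were -0.12 for Urod (adjusted p = 0.0052) and -0.22 for Ppox (adjusted p = 4.4e-05).

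Alad, the cytosolic enzyme that joins molecules of aminolevulinic acid in pairs, had group means from 2.14 (myclobutanil at 6 h) to 2.43 (myclobutanil at 24 h). At 24 h it read 2.29, 2.76, 2.38, 2.14 and 2.34 in controls, 2.44, 2.38, 2.58, 2.43 and 2.31 with myclobutanil, and 2.11, 2.31, 2.28, 2.12 and 1.99 with triadimefon. The groups overlapped, and the differences from control were 0.045 ± 0.083 (adjusted p = 0.81) and -0.22 ± 0.083 (adjusted p = 0.094). Cpox, which makes protoporphyrinogen, had group means from 1.32 (myclobutanil at 6 h) to 1.67 (myclobutanil at 24 h). Its largest difference from control was 0.201 ± 0.061 with myclobutanil at 14 days (adjusted p = 0.1), when all 5 treated arrays lay above the control mean. Fech, which closes the pathway by inserting iron, had group means from 1.44 to 1.64, and its difference from control was at most 0.142 ± 0.059, with triadimefon at 14 days (adjusted p = 0.13).

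At 24 h these enzymes depended on the scaling of the arrays. After quantile normalization, Alad was 0.17 higher with myclobutanil (adjusted p = 0.018), Cpox 0.18 higher (adjusted p = 0.0016) and Fech 0.15 higher (adjusted p = 0.003). With triadimefon Fech was 0.11 higher (adjusted p = 0.044), while Alad differed by -0.07 (adjusted p = 0.41) and Cpox by 0.06 (adjusted p = 0.38). The Cpox difference with triadimefon was -0.05 as deposited, so its sign turned with the scaling. On the deposited scores without control array 2, the 24 h myclobutanil differences were 0.14 for Alad, 0.16 for Cpox and 0.11 for Fech, with adjusted p of 0.1 or more.

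**Figure D4:**
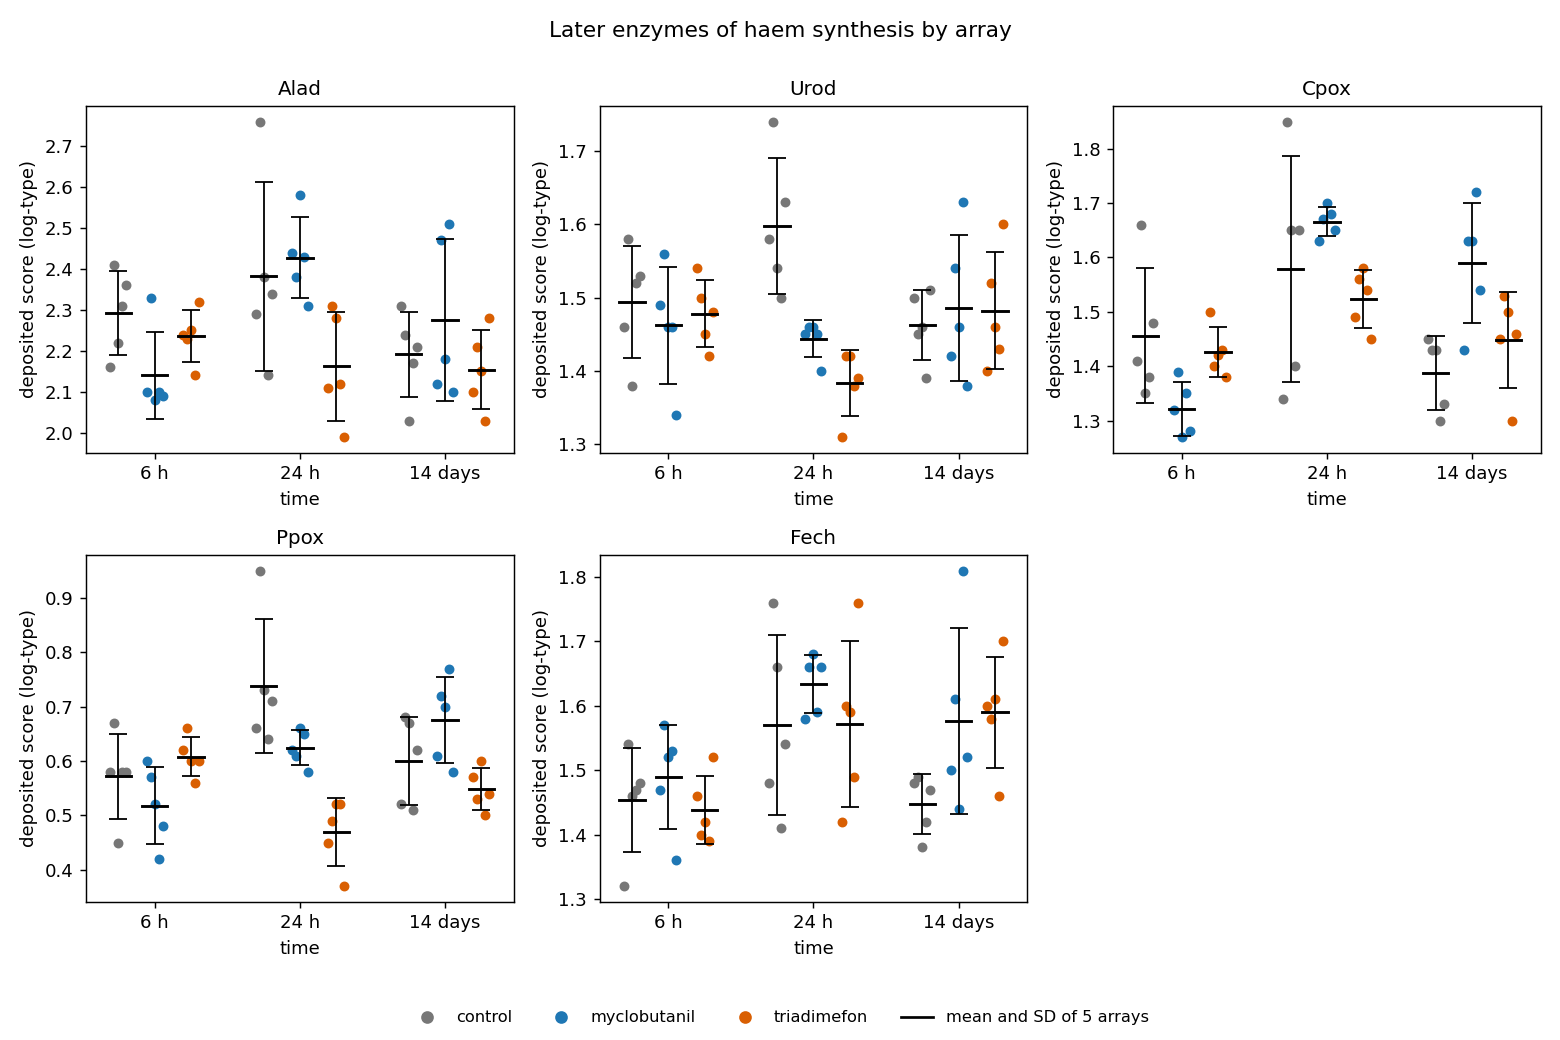
Deposited score (y axis, log-type scale, a separate range for each gene) of Alad, Urod, Cpox, Ppox and Fech on each array at 6 h, 24 h and 14 days, with the mean and SD of 5 arrays. At 24 h all treated arrays of Urod, and the triadimefon arrays of Ppox, lie below the controls, and control array 2 stands highest among the controls in every panel at 24 h.

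Hmox1, the inducible haem oxygenase, rose in 1 group. At 6 h it read 0.84, 0.92, 0.99, 0.98 and 0.83 in controls and 0.86, 1.05, 0.93, 0.77 and 0.88 with triadimefon. With myclobutanil it read 1.49, 1.65, 1.19, 1.36 and 1.12, and all 5 arrays lay above all others of that time. Separation from control and from triadimefon was seen for 1.63% and 1.82% of probe sets. The difference from control was 0.451 ± 0.068 with myclobutanil (adjusted p = 9.8e-05), and triadimefon gave -0.013 ± 0.068 (adjusted p = 0.97). The compounds differed by -0.464 ± 0.068, triadimefon being lower (adjusted p = 2e-04), the only member called between the compounds at any time on the deposited scores, where 0.251% of probe sets were called at 6 h, 1.06% at 24 h and 0.332% at 14 days.

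At 24 h Hmox1 ran from 0.64 to 0.92 in controls, from 0.64 to 0.84 with myclobutanil and from 0.69 to 0.99 with triadimefon. At 14 days it ran from 0.74 to 0.96, from 0.84 to 1.01 and from 0.86 to 0.99. These ranges overlap, and the differences from control were 0.03 and 0.09 at 24 h and 0.08 and 0.13 at 14 days, with adjusted p of 0.23 or more. The myclobutanil effect changed from 6 h to 24 h by -0.425 ± 0.096 (adjusted p = 0.01, with 1.75% of probe sets called). The 14-day against 6 h change was -0.374 ± 0.096 and missed the threshold (adjusted p = 0.067, with 0.335% called), and after quantile normalization it was -0.44 with adjusted p = 0.0022.

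Within the myclobutanil group at 6 h, the arrays at 1.49 and 1.65 end in 11 and those at 1.19, 1.36 and 1.12 end in 12. On arrays ending in 11 alone the Hmox1 difference was 0.69 (adjusted p = 2.3e-05), and with the ending as a covariate 0.46 (adjusted p = 8.5e-05). The call held when any 1 array of the groups compared was left out, with differences of 0.378 to 0.511. In a fit of only the groups compared, it was lost (adjusted p = 0.077 for Hmox1 against control and 0.073 between the compounds). By Pearson r over 45 quantile-normalized arrays the genes most like Hmox1 were Bclaf1 (0.737), Deptor (0.734) and Wbp1l (0.724), and the r of Hmox1 with Alas1 was 0.386.

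Blvrb, a biliverdin and flavin reductase, rose with myclobutanil at 24 h. It read 1.57, 1.68, 1.50, 1.34 and 1.56 in controls, 1.68, 1.87, 1.96, 1.79 and 1.76 with myclobutanil, and 1.66, 1.79, 1.78, 1.48 and 1.84 with triadimefon. The myclobutanil arrays met the controls at a single value, 1.68. The differences were 0.276 ± 0.072 (adjusted p = 0.012) and 0.177 ± 0.072 (adjusted p = 0.13), and after quantile normalization 0.36 (adjusted p = 0.00014) and 0.29 (adjusted p = 0.003). The compounds differed by -0.099 ± 0.072 (adjusted p = 0.7), so a difference between them was not shown.

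At 14 days Blvrb read 1.30, 1.40, 1.39, 1.42 and 1.45 in controls, 1.48, 1.75, 1.74, 1.85 and 1.47 with myclobutanil and 1.54, 1.65, 1.43, 1.51 and 1.73 with triadimefon. Myclobutanil arrays lay above all controls, as for 2.91% of probe sets, but the difference of 0.269 ± 0.072 had an adjusted p of 0.059. With triadimefon it was 0.18 ± 0.072 (adjusted p = 0.12). At 6 h the differences were 0.157 and 0.077, with adjusted p of 0.53 and 0.77.

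Hpx, the plasma protein that carries free haem to the liver, was not called in any comparison. Its group means ran from 4.04 (myclobutanil at 24 h) to 4.53 (myclobutanil at 14 days), and the largest difference from control was -0.252 ± 0.166 (adjusted p = 0.4), with myclobutanil at 24 h. Single arrays ranged widely, from 3.76 to 4.79 among the controls at 6 h. After quantile normalization the SD of those 5 controls went from 0.44 to 0.014, and the 24 h myclobutanil difference was -0.06 (adjusted p = 0.073). Hpx lies at percentile 99.9 of mean score, where arrays given 1 distribution have little room to differ. The drop in SD is thus largely set by the method, and the source of the spread was not tested.

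**Figure D5:**
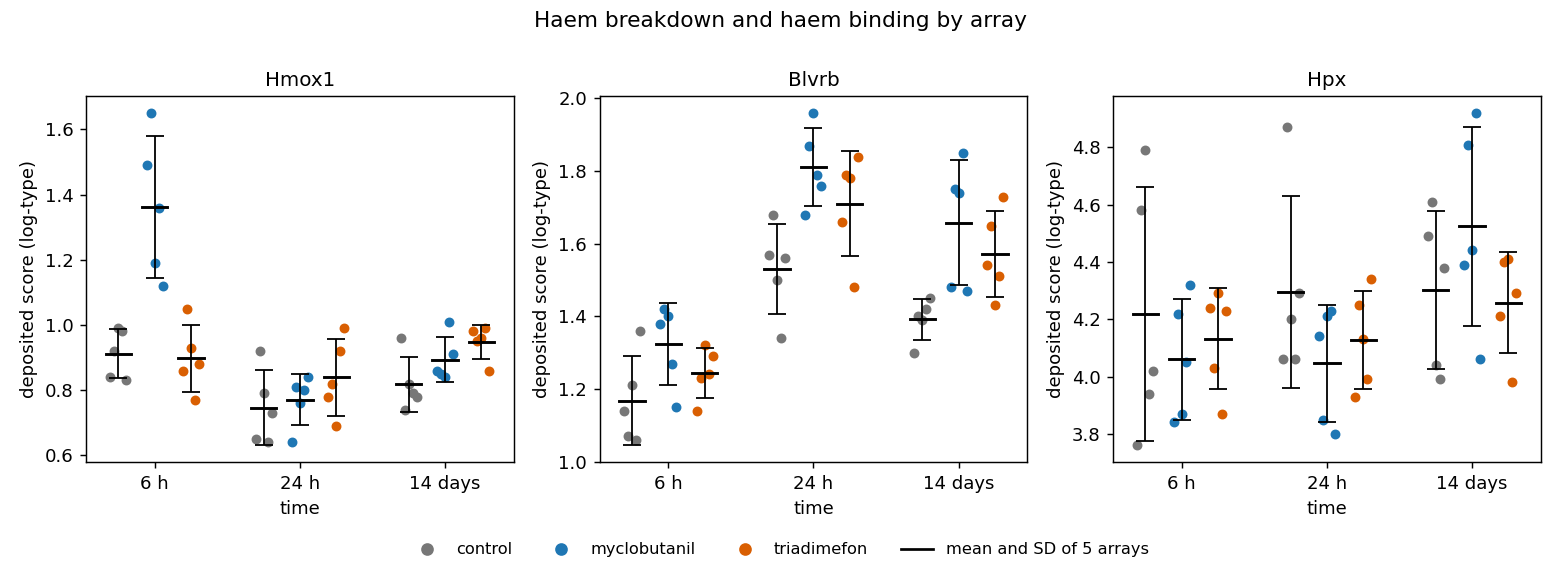
Deposited score (y axis, log-type scale, a separate range for each gene) of Hmox1, Blvrb and Hpx on each array at 6 h, 24 h and 14 days, with the mean and SD of 5 arrays. Hmox1 is high only on the 5 myclobutanil arrays at 6 h, Blvrb is higher at 24 h than at 6 h in controls too, and Hpx overlaps between all groups.

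The compounds were also set against each other directly, for 10 genes at each of 3 times. For Alas1, triadimefon minus myclobutanil was -0.13 at 6 h (95% interval -0.47 to 0.22, adjusted p = 0.96), 0.18 at 24 h (-0.17 to 0.52, adjusted p = 0.8) and 0.01 at 14 days (adjusted p = 0.99). For Por it was -0.04 (adjusted p = 0.99), 0.14 (adjusted p = 0.86) and 0.10 (adjusted p = 0.85). A missed threshold does not show that the compounds act alike on these genes. At 24 h the triadimefon arrays lay wholly below the myclobutanil arrays for Ppox and Cpox, 2 of 10 genes, as for 2.94% of probe sets. After quantile normalization Alad (-0.24, adjusted p = 0.0023) and Ppox (-0.15, adjusted p = 0.0085) were lower with triadimefon at 24 h. Over all probe sets, the share called in that comparison also went up, from 1.06% as deposited to 3.6%. Of those calls after quantile normalization, 352 were higher and 765 lower with triadimefon.

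The controls themselves differed between times, which sets the level from which each difference is taken. Blvrb was higher in controls at 24 h than at 6 h by 0.365 ± 0.072 (adjusted p = 0.0022, with 2.78% of probe sets called), and Ppox by 0.165 ± 0.045 (adjusted p = 0.032). The Ppox call was lost in 6 of 10 repeats that left out 1 array. Urod and Ppox both had their highest mean of the 9 groups in the 24 h controls (1.599 and 0.737), from which their falls are taken. Urod in controls was 0.107 ± 0.043 higher at 24 h than at 6 h (adjusted p = 0.22). From 24 h to 14 days it differed by -0.136 ± 0.043 (adjusted p = 0.096). Por was lower in controls at 14 days than at 6 h, a difference of -0.539 ± 0.169 that missed the threshold as deposited (adjusted p = 0.066, with 3.33% of probe sets called) and passed it after quantile normalization (-0.51, adjusted p = 0.043). Alas1 differed by -0.19 ± 0.17 between controls at 24 h and 6 h (adjusted p = 0.72) and by -0.10 ± 0.17 between 14 days and 24 h (adjusted p = 0.77). No member was called between controls at 14 days and 24 h, where 0.238% of probe sets were called. An unadjusted p under 0.05 was found there for 5 of 10 members and for 19.7% of all probe sets.

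Myclobutanil array 4 at 14 days had the second widest spread of the 45, with a 99th percentile of 3.41, and was, like control array 2 at 24 h, the highest of its group for 10 of 10 members. Its Alas1 score of 2.64 and Por score of 2.05 are the highest at 14 days. The 14-day differences with myclobutanil were positive for 10 of 10 members as deposited, where the median difference over all probe sets was 0.008. The signs depended on the scaling. After quantile normalization the means of Alad (2.185 against 2.225 in controls) and Urod (1.441 against 1.506) lay below control, and those of the other members above it. Without this array the count of members called stayed at 0, which does not bear on the signs.

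The wider pathway was followed through 72 further entries on 7 lists, of which 62 were measured. None was called with myclobutanil at 6 h and 1 rose with triadimefon, Slc25a38, the mitochondrial glycine carrier (0.124 ± 0.032, adjusted p = 0.044). At 24 h 4 rose and 6 fell with myclobutanil, beside 8.47% of all probe sets called and 15% of those above the median level, and 8 rose and 7 fell with triadimefon, beside 7.98% and 16.2%. At 14 days 3 rose with myclobutanil, beside 0.792% and 2.06%, and 8 with triadimefon, beside 6.69% and 10.5%, and 0 fell with either. After quantile normalization the counts at 6 h were 1 higher and 2 lower with myclobutanil and 5 higher and 4 lower with triadimefon. Those at 24 h were 13 higher and 6 lower with myclobutanil and 17 higher and 5 lower with triadimefon, and at 14 days 4 higher and 0 lower, and 12 higher and 8 lower. Over all probe sets after quantile normalization, 1.42% were called with myclobutanil and 2.67% with triadimefon at 6 h. These shares were 10.8% and 9.03% at 24 h and 1.11% and 9.15% at 14 days.

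Of the other haem synthesis enzymes, Alas2 and Uros were measured and called in 0 of the 6 comparisons with control. Of the carriers that bring iron into mitochondria, Slc25a28 rose by 0.153 ± 0.04 with myclobutanil at 24 h (adjusted p = 0.011). Slc25a37 rose by 0.179 ± 0.036 with triadimefon at 24 h (adjusted p = 0.0012). Shmt2, which makes glycine in mitochondria, fell by 0.336 ± 0.078 with triadimefon at 24 h (adjusted p = 0.0051). Sucla2, a subunit of succinyl-CoA ligase, fell by 0.188 with myclobutanil and fell by 0.246 with triadimefon at 24 h (adjusted p = 0.045 and 0.0081). The list of these carriers and partners had 15 genes measured, and at 24 h 2 rose and 2 fell with each compound. Between the compounds 0 of 15 were called at 24 h as deposited, beside 1.06% of all probe sets. After quantile normalization 3 were lower with triadimefon, beside 3.6%. A gene named for 1 compound is thus not shown to differ between them.

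In breakdown and haem handling, Blvra, the other biliverdin reductase, fell by 0.121 ± 0.032 with myclobutanil at 24 h (adjusted p = 0.013) and fell by 0.131 ± 0.032 with triadimefon (adjusted p = 0.0079). Abcc3, which exports bilirubin glucuronides and other conjugates to blood, rose at 24 h by 0.472 and 0.314 and at 14 days by 0.811 and 1.131, with adjusted p from 0.035 down to 1.1e-10. Hebp1, a small haem-binding protein, fell by 0.29 with myclobutanil and fell by 0.408 with triadimefon at 24 h (adjusted p = 0.025 and 0.0018). Among haem proteins, Cyp3a23-3a1 rose by 0.673 and 0.713 at 24 h and by 0.864 and 0.799 at 14 days, with adjusted p of 0.0022 or less. Cyp7a1, the first enzyme of bile acid synthesis from cholesterol, fell by 1.603 with myclobutanil and fell by 1.338 with triadimefon at 24 h (adjusted p = 9.3e-05 and 0.0014).

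Of 12 regulators measured, 0 were called with myclobutanil at any time, beside 0.38%, 8.47% and 0.792% of all probe sets at 6 h, 24 h and 14 days. With triadimefon 1 was called at 24 h, Mafg, a small Maf protein that pairs with Nrf2 and with Bach1, which rose by 0.104 ± 0.03 (adjusted p = 0.025). That 1 of 12 is near the share called there, 7.98% of all probe sets and 16.2% of those above the median level. At 14 days 3 of 12 were called with triadimefon, beside 6.69% and 10.5%. With triadimefon at 14 days the haem-sensing nuclear receptors of the clock rose, Nr1d1 by 0.557 ± 0.086 (adjusted p = 5.8e-05) and Nr1d2 by 0.939 ± 0.104 (adjusted p = 9.3e-08), and both were higher than with myclobutanil (0.524 and 0.825, adjusted p = 0.0012 and 7.1e-06). Keap1, which holds the oxidant-sensing factor Nrf2 in check, rose by 0.164 ± 0.031 (adjusted p = 0.0011).

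Markers of other cells were called in 3 of the 6 comparisons with control. At 24 h 5.42% of all probe sets were called lower with myclobutanil and 5.75% with triadimefon, and 1.06% were called between the compounds. Among probe sets above the median level, 15% and 16.2% were called in either direction against control at 24 h. Of 11 macrophage and Kupffer cell markers measured, 10 were lower with myclobutanil at 24 h and 0 with triadimefon at 24 h, and 6 of 11 differed between the compounds. Their mean score per array ran from 1.25 to 1.74 in controls at 24 h, from 0.973 to 1.19 with myclobutanil and from 1.24 to 1.57 with triadimefon, and 11 of 11 had a mean score over 0. None of the 11 was called at 6 h or at 14 days, and 2 of 11 were lower with myclobutanil at 14 days after quantile normalization. At 6 h 0.38% of all probe sets were called with myclobutanil and 0.915% with triadimefon. The mean score of the 11 at 6 h was 1.36 in controls, 1.28 with myclobutanil and 1.41 with triadimefon. With triadimefon at 14 days 6.69% of all probe sets were called, and 10.5% of those above the median level. Of 9 endothelial and stellate cell markers measured, 3 were lower with myclobutanil at 24 h (Pecam1, Lyve1 and Pdgfrb). With triadimefon 1 was lower at 24 h (Pdgfrb) and 1 was higher at 14 days (Pecam1), each 1 of 9 and near these shares. The mean score of these 9 markers per array at 24 h ran from 0.793 to 0.99 in controls, from 0.717 to 0.842 with myclobutanil and from 0.781 to 0.871 with triadimefon. At 14 days it ran from 0.75 to 0.83 in controls and from 0.82 to 0.89 with triadimefon, and 9 of 9 had a mean score over 0. The part of these cells in the differences of the haem genes was not tested. In the 6 comparisons with control, 0.38% to 8.47% of all probe sets were called. Of 10 erythroid markers, which include Alas2 and Hbb, 0 were called in any of them, and 6 of 10 had a mean score over 0. Their mean score per array ran from 0.386 to 0.605 in controls at 6 h and from 0.457 to 0.757 in controls at 24 h, and the treated arrays of those times lay between 0.407 and 0.593.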

How the data were processed

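The authors deposited 1 table of 31099 probe sets by 45 arrays, whose score values lie on a log-type scale. Its base, summarisation and normalization are not given in the sources used here. Values on a log scale with a known base had been assumed in the design, and the same linear model was kept, with differences in score units. The 57 control probe sets were left out. With R 4.3.3 and limma 3.58.1, 1 mean per group was fitted over all 45 arrays, with eBayes at its defaults and Benjamini-Hochberg adjustment over 31042 probe sets per comparison, and adjusted p under 0.05 as the threshold. The number of arrays, 5 per group, limits the precision. The fit was tested on simulated data.

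Symbols came from the platform annotation, which lists 1 gene for 20826 probe sets, several for 436 and none for 9780. Members and lists were chosen with earlier results of these data known, and 101 of 123 list entries were matched. All members are described. From each list at most the 3 called genes of largest difference per comparison are named, and for Alas1, Hmox1 and Por the 3 genes of highest r. Alternatives were quantile normalization, equal medians, a filter on dim probe sets, moderation, array weights, the replicate block, the file-name ending, the arrays in the fit, the threshold and leaving out arrays. The fit with each ending as its own term, and the fit without control array 2 at 24 h for all members, were chosen after seeing the data. Promoters and gene positions are from RefSeq, assembly GRCr8. Promoters were found for 8 of 10 members, and those of Hmox1 and Cpox are not shown.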

Additional observations from a re-analysis of the deposited data

Results flagged for a closer look

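Of 99 groups of 5 arrays checked, 6 held an array far from the others, where chance gives about 1 in 20. Alad was high on myclobutanil array 2 at 6 h (2.33, next 2.10), and Urod was low on myclobutanil array 5 at 24 h (1.40, next 1.45). Por was high on triadimefon array 5 at 24 h (3.06, next 2.15) and on control array 2 at 14 days (1.43, next 1.05). The second Por probe set was high on the same arrays (2.81, next 1.93, and 1.27, next 0.99).

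In 5 cases a compound's effect differed between times by the limma contrast of the effects. These were Hmox1 with myclobutanil at 24 h against 6 h (-0.425), Ppox with triadimefon at 24 h against 6 h (-0.303), and, with triadimefon at 14 days against 24 h, Alas1 (-0.843), Urod (0.235) and Ppox (0.216). Without control array 2 at 24 h the last was 0.163 (adjusted p = 0.065). Urod and Ppox at 14 days against 24 h lost their calls after quantile normalization, and Ppox at 24 h against 6 h on arrays ending in 11. At 24 h against 6 h, 1.75% of all probe sets were called for myclobutanil and 3.13% for triadimefon. For triadimefon at 14 days against 24 h the share was 12.7%, and 20.6% of probe sets above the median level.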

How the results depend on the processing

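The unknown scale and the number of arrays limit these values, and the causes of the changes below were not tested. The count of members called with myclobutanil at 6 h went from 3 to 1 on arrays ending in 11 and to 0 with only the groups compared. It was between 2 and 3 with 1 array left out. Por with myclobutanil at 6 h also lost its call under a variance trend with robust moderation and with the ending as covariate. The same held with each ending as its own term, and its adjusted p of 0.048 did not pass 0.01. With triadimefon at 6 h the count of members called went from 2 to 1 under a variance trend with robust moderation, with the ending as covariate and at an adjusted p under 0.01. It went to 0 on arrays ending in 11 and with each ending as its own term, and to between 0 and 2 with 1 array left out. With myclobutanil at 24 h it went from 4 to 2 at an adjusted p under 0.01 and to 6 after quantile normalization, and with triadimefon at 24 h from 4 to 6 after quantile normalization. At 14 days it went from 0 to 1 with myclobutanil on probe sets above the median level and to between 0 and 1 with 1 array left out, and with triadimefon to 2 under array weights and 1 with only the groups compared. Between the compounds it went from 1 to 0 at 6 h with only the groups compared, and at 24 h from 0 to 2 after quantile normalization and with only the groups compared, and to 1 under array weights. Over all probe sets, 3.6% were called between the compounds at 24 h after quantile normalization. The share was 0.612% with only the groups compared and 2.44% under array weights. No direction of a called result reversed.

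The replicate numbers did not pair the arrays, since deviations of arrays with the same number had a mean r of 0.049 (-0.161 to 0.236) and those with different numbers -0.012. With the replicate block, 24 of 24 called results kept their call, and the count of members called became 1 with myclobutanil at 14 days and 1 between the compounds at 24 h. Quantile normalization kept 21 of 24, and the equal-median scaling 24 of 24.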
